A study of Rattus norvegicus and Heterocephalus glaber with 6 samples.

Results

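The liver tables of the naked mole rat held 198 rows that could not be set beside a rat gene by name, out of 734 rows in all. A row is 1 gene name, or a dash, together with 1 locus and 1 expression value. A row was taken when its name was a dash or when the name, in capitals, equalled no name in the rat tables. Names of olfactory receptors, recognised by OR followed by a digit, were left out. The 198 rows were made up of 142 rows with a name, which carried 126 different names, and 56 rows without a name. Of the other rows, 409 had a rat name and 127 were olfactory receptor names, none of which had a rat match.

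The samples were livers of naked mole rats (Heterocephalus glaber), a subterranean rodent that tolerates low oxygen, and livers of rats (Rattus norvegicus). Both groups had been kept in 8% oxygen for 8 hours, and polyadenylated RNA was sequenced in 3 libraries per species. Normoxia libraries were not used here, so every value below is a level in hypoxic liver and no effect of oxygen could be tested. The labels do not say that each library came from a different animal, and sex, age and strain are not given in them, so the SD between libraries may in part be technical.

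Gene tables of different species are usually joined by gene symbol. A symbol fails to join when the gene carries an older name in one species, when the gene belongs to a family whose copies are numbered separately in each species, when no name was assigned, or when the gene is missing from one table. In the liver, families of separately numbered copies include the cytochromes P450, haem enzymes of the endoplasmic reticulum that oxidise drugs, steroids and vitamins, and the UDP-glucuronosyltransferases, which attach glucuronic acid to bile acids, steroids and drugs so that they can be excreted. Zinc finger genes, immunoglobulin segments and chemosensory receptors are other families whose copies are named species by species.

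Expression was given as FPKM, a fragment count divided by the length of the transcript and by the sequencing depth. The 3 naked mole rat tables summed to between 17543 and 21793 FPKM over the 734 rows, and the rat tables to between 527133 and 557187 FPKM over 22549 rows. Shares below are therefore shares of the naked mole rat rows used here and not of all liver RNA. Of 16 hepatocyte markers looked for, among them ALB, APOA1 and APOB, 0 were rows of the naked mole rat tables used here, so the liver label could not be checked by them. The rat tables had 14 of these markers, and all 14 averaged 1 FPKM or more. Markers of macrophages, endothelium, stellate cells, lymphocytes, neutrophils and bile ducts were also at 0 rows in the naked mole rat tables used here. Of 4 erythroid markers 2 had a row, the beta-globin gene HBB with a mean of 64.8 FPKM and ALAS2, which is among the 198 rows.

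The 198 rows held most of the FPKM of each naked mole rat table although they were the minority of its rows. Their share of the table was 61.2% in naked mole rat 1, 68.8% in naked mole rat 2 and 57.9% in naked mole rat 3, with a mean of 62.6% ± 5.59 (SD, n = 3). Rows without a name held 35.6% ± 5.87 (SD, n = 3) and named rows 27.0% ± 1.13 (SD, n = 3). The rows with a rat match held 37.3% ± 5.59 (SD, n = 3), so the share of the unmatched rows was higher in each of the 3 libraries. This share was carried by a few rows. The most abundant row alone made 53.0% of the FPKM of the 198 rows, the first 8 made 93.5% and the first 20 made 97.0% on average. With the most abundant row left out of the table, the unmatched rows held 44.2% ± 3.80 (SD, n = 3), and the rows with a rat match then held the larger share.

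**Figure D1:**
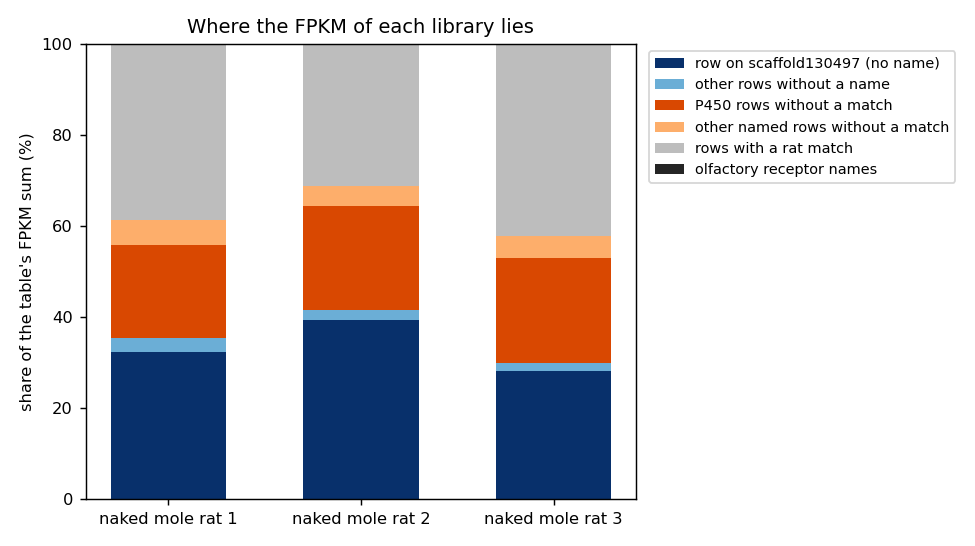
Share of each naked mole rat table's FPKM sum (y axis, percent) by kind of row, 1 bar per library. The row on scaffold130497 and the P450 rows fill most of each bar below the rows with a rat match, and the unmatched rows together reach 61.2%, 68.8% and 57.9%.

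Most of the 198 rows were low. A mean of at least 1 FPKM was reached by 85 rows (42.9%), at least 10 FPKM by 29 rows (14.6%) and at least 100 FPKM by 8 rows. The whole table was much alike. Over all 734 rows, 43.5% reached 1 FPKM and 14.4% reached 10 FPKM. Their median was 0.449 FPKM, and 32.8% were listed at 0 in every library. The value was above 0 in all 3 libraries for 113 rows and in some of them for 32, and 53 rows (26.8%) were listed at 0 in every library. The median row had 0.416 FPKM, against 1.47 FPKM for rows with a rat match, of which 56.5% reached 1 FPKM and 19.1% were listed at 0. Named and unnamed rows differed in this. Among the 142 named rows 71 reached 1 FPKM, 25 were listed at 0 and the median was 0.967 FPKM. Among the 56 unnamed rows 14 reached it, 28 were listed at 0 and the median was 0.00905 FPKM. Rows are not replicates of a condition, and these shares are descriptions of the table.

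The highest of all 198 rows had no name. It lay at scaffold130497:634-1294 and had 5683 FPKM in naked mole rat 1, 8586 in naked mole rat 2 and 5380 in naked mole rat 3 (mean 6550 ± 1770, SD, n = 3). It was 660 bp long and was the highest row in each of the 3 libraries. The sources used here name no genome assembly, and neither a sequence nor a gene identity is given for it.

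Below it stood a pair of unnamed rows of very different length. The row at scaffold35662:262-427, which at 165 bp was the shortest of the 198, had 189, 285 and 173 FPKM (mean 215 ± 60.4, SD, n = 3). The row at scaffold48809:27689-41759 had 308, 157 and 103 FPKM (mean 189 ± 106, SD, n = 3). The ranges of this pair overlapped, and both lay far below the first row in every library. The row on scaffold48809 shared 51.8% of its length with a row named USP53, a gene of the ubiquitin-specific protease family, which had 6.78, 4.71 and 2.31 FPKM. Both rows of that pair were highest in naked mole rat 1 and lowest in naked mole rat 3.

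After these 3 rows the unnamed rows dropped to 8.59 ± 2.84 FPKM (SD, n = 3) on scaffold175283, and no other unnamed row reached 5 FPKM. The next was on scaffold14, with 3.25, 2.02 and 8.06 FPKM (mean 4.44 ± 3.19, SD, n = 3). Without naked mole rat 3 its mean was 2.63 FPKM, so its place in the order rests on that library. Then came the rows on scaffold726 (3.96 FPKM), scaffold7316 (3.57), scaffold77008 (3.07), scaffold9999 (2.52), scaffold352 (2.03), scaffold78 (1.78) and scaffold59 (1.75). The last of these had a mean of 0.518 FPKM without naked mole rat 1. Among these 12 highest unnamed rows, 2 steps in the order were wider than the range of the libraries, the one below scaffold130497 and the one above scaffold175283. At the other 9 steps the neighbouring rows overlapped in their library ranges. Rows further apart could still be separate, as scaffold7316 (3.39 to 3.86 FPKM) and scaffold78 (1.51 to 2.22) were.

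**Figure D2:**
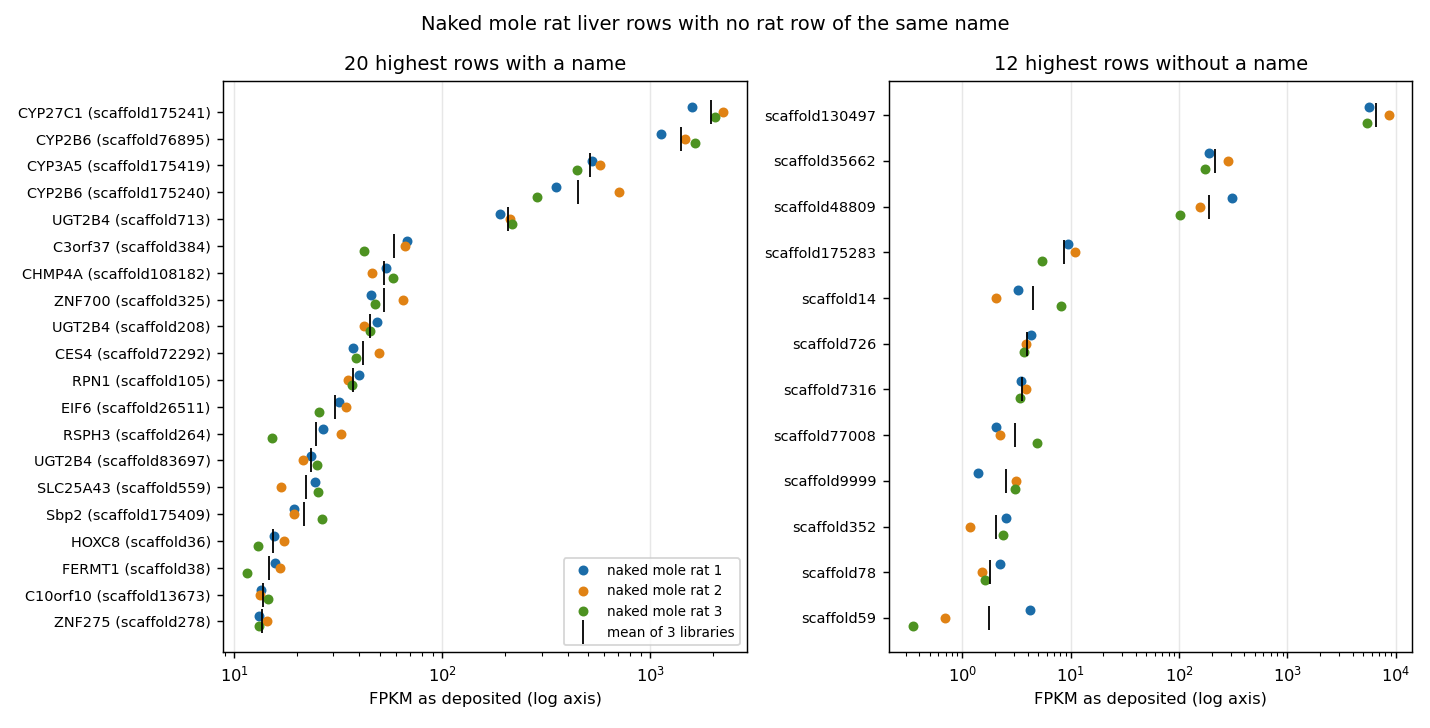
FPKM (x axis, log scale) of the 20 highest named rows on the left and the 12 highest unnamed rows on the right, with 1 point per naked mole rat library and a bar at the mean of 3 libraries. P450 and UGT2B4 rows lead the named rows, and 3 unnamed rows stand above 100 FPKM while the other unnamed rows all average below 10 FPKM.

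Enzymes of drug, steroid and vitamin metabolism led the named rows. The 4 cytochrome P450 rows summed to 3573, 4970 and 4406 FPKM (mean 4317 ± 703, SD, n = 3) and made 35.4% ± 3.85 (SD, n = 3) of the FPKM of the 198 rows. Their lowest single value was 284 FPKM, and none shared bases with another row. High levels of these families were not particular to the unmatched rows. The 2 P450 rows with a rat match had a median of 1218 FPKM, against 959 for the 4 unmatched ones. A median of 2 rows is the midpoint of their values. At least 1 of them was thus that high, but the median does not show where the other lay. The 4 UDP-glucuronosyltransferase rows with a rat match had a median of 67.4 FPKM, against 45.2 for the 3 unmatched ones.

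CYP27C1, which in other vertebrates desaturates vitamin A, lay at scaffold175241:64449-71572 and had 1577, 2232 and 2044 FPKM (mean 1951 ± 337, SD, n = 3). It was the highest named row in all 3 libraries. The only rat row with a name that starts with CYP27 was Cyp27a1, the sterol 27-hydroxylase of bile acid synthesis, at 137 ± 7.76 FPKM (SD, n = 3). These are different genes by name, and the values are set side by side without a comparison. RefSeq's table for the rat assembly GRCr8 lists no symbol or synonym CYP27C1.

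CYP2B6, a drug-oxidising P450 named after the human gene, had 2 rows on separate scaffolds. The row at scaffold76895:886-8701 had 1121, 1459 and 1634 FPKM (mean 1405 ± 261, SD, n = 3). The row at scaffold175240:10456-13342 had 352, 706 and 284 FPKM (mean 447 ± 226, SD, n = 3), and its SD of log2(FPKM + 1) was the second largest among the 29 rows that averaged 10 FPKM or more. The first row was higher than the second in every library, while naked mole rat 2 was highest in the second row and naked mole rat 3 in the first.

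The 2 CYP2B6 rows summed to 1473, 2165 and 1918 FPKM (mean 1852 ± 351, SD, n = 3). The 5 rat rows of the CYP2B subfamily, Cyp2b1, Cyp2b2, Cyp2b12, Cyp2b15 and Cyp2b21, summed to 3.05, 11.5 and 4.24 FPKM (mean 6.24 ± 4.55, SD, n = 3). Every naked mole rat sum was thus over 100 times every rat sum as deposited. RefSeq gives CYP2B6 as a synonym of rat Cyp2b3, which had no row in the rat tables used here, so the rat sum does not cover it. How reads were divided between copies of such near-identical genes is not given in the sources used here, and values of single copies are uncertain.

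CYP3A5, a P450 of the subfamily that metabolises a large part of all drugs, lay at scaffold175419:7115-75462 and had 523, 574 and 444 FPKM (mean 514 ± 65.8, SD, n = 3). Its range overlapped that of the lower CYP2B6 row. The 6 rat CYP3A rows together had 806, 875 and 909 FPKM (mean 863 ± 52.5, SD, n = 3), and the highest of them, Cyp3a23/3a1, had 372 FPKM on average. For CYP3A the rat sum was the higher one in all libraries, and for CYP2B the naked mole rat sum was. The CYP3A sums are of 1 naked mole rat row and 6 rat rows, and the CYP3A5 row lay above Cyp3a23/3a1 in every library. The naked mole rat sums cover only the rows present, so other members of a subfamily may be missing from them.

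UGT2B4, a glucuronosyltransferase that acts on bile acids and steroids, had 3 rows on separate scaffolds. They had 206 ± 14.4 FPKM on scaffold713, 45.2 ± 3.28 on scaffold208 and 23.3 ± 1.82 on scaffold83697 (SD, n = 3 each), and these ranges did not overlap. On scaffold713 the single libraries had 190, 212 and 216 FPKM. Their spans were alike, between 8644 and 10268 bp. The 3 rows summed to 275 ± 12.4 FPKM (SD, n = 3), and the 6 rat rows whose names start with UGT2B summed to 836 ± 258 FPKM (SD, n = 3), with rat 1 at 1131 and the other rat libraries at 718 and 658. CES4 is named as a carboxylesterase, an enzyme that cleaves ester bonds in drugs and lipids. Its row of 398 bp started at position 2 of scaffold72292 and had 37.1, 49.7 and 38.5 FPKM (mean 41.8 ± 6.89, SD, n = 3). The 7 rat carboxylesterase rows summed to 171 ± 22.3 FPKM (SD, n = 3). The number of rows, annotation, span and species differ together between these sums and cannot be told apart.

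The remaining named rows above 20 FPKM came from unrelated gene groups. C3orf37, on scaffold384, had 67.7, 66.6 and 42.3 FPKM (mean 58.9 ± 14.3, SD, n = 3). CHMP4A, a subunit of the ESCRT-III complex that cuts membrane necks, had 53.6, 46.1 and 58.1 FPKM (mean 52.6 ± 6.07, SD, n = 3) over a row of 1206 bp. ZNF700, a zinc finger gene, had 45.7, 64.6 and 47.4 FPKM (mean 52.6 ± 10.5, SD, n = 3) on scaffold325. The ranges of these 3 rows overlapped each other and that of UGT2B4 on scaffold208.

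RPN1, the ribophorin subunit of the complex that attaches sugar chains to proteins entering the endoplasmic reticulum, had 39.9, 35.3 and 36.9 FPKM (mean 37.4 ± 2.34, SD, n = 3). EIF6, which keeps the large ribosomal subunit from joining too early, had 31.9, 34.5 and 25.7 FPKM (mean 30.7 ± 4.54, SD, n = 3). The libraries of RPN1 lay above all those of EIF6. RSPH3, a radial spoke protein of cilia, had 26.7, 32.7 and 15.2 FPKM, with naked mole rat 3 well below the others. SLC25A43, of the mitochondrial carrier family, had 22.1 ± 4.62 FPKM (SD, n = 3), and Sbp2 had 21.8 ± 4.08 FPKM (SD, n = 3).

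Between 10 and 20 FPKM the named rows were HOXC8, a homeobox gene (15.3 FPKM), FERMT1, the integrin-binding kindlin-1 (14.6), C10orf10 (13.8), ZNF275 (13.6), ROPN1B, a sperm-tail protein gene (11.7), ANO8, of the anoctamin family (11.3), HUWE1, a ubiquitin ligase (9.44 to 13.1 over the libraries), MCM9, a helicase of DNA recombination (10.9), C20orf3 (10.2) and VBP1, a prefoldin subunit that binds the von Hippel-Lindau protein (10.1). All of these rows except FERMT1 and HUWE1 shared bases with another row. HOXC8 shared 87.5% of its row with AAAS, which had 22.4 FPKM and was higher in every library. ROPN1B shared 80.4% of its row with DIRC2, C20orf3 lay within PYGB and VBP1 within FUNDC2. These 3 partners were lower in every library, with 4.34, 1.39 and 4.85 FPKM. Of the 19 steps between the 20 highest named rows, 14 had overlapping library ranges, and at 2 of these the lower row was still lower in each library. Rows some steps apart were separate, RPN1 from SLC25A43 for example. The 5 steps that were wider were those above CYP3A5, UGT2B4 on scaffold713, C3orf37, EIF6 and HOXC8.

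Sorted by name, 56 rows fell into 13 of 33 gene family lists, and 86 named rows into none. Open reading frame names of the human kind formed the largest list, with 15 rows, of which 5 reached 1 FPKM and 3 were listed at 0. The highest were C3orf37, C10orf10 and C20orf3, followed by C9orf91 with 8.55 ± 0.0697 FPKM and C16orf87 with 8.02 ± 2.94 FPKM (SD, n = 3 each). Another 2 rows carried such a name for the X chromosome, CXorf40B at 5.57 FPKM and CXorf67 at 0.0691 FPKM. These are provisional names given to human genes before their products were studied.

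Zinc finger genes, which mostly encode DNA-binding repressors, had 13 rows under 11 names, and 5 reached 1 FPKM. Their sum was 81.2 ± 12.3 FPKM (SD, n = 3), most of it from ZNF700. ZNF275 had 13.6, ZNF219 5.69, ZNF25 4.86 and ZNF239 2.27 FPKM on average. The other 8 rows were below 1 FPKM, and ZNF69 and ZNF146 were listed at 0 in every library.

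Immunoglobulin, defensin, histone and vomeronasal receptor rows were near 0. The highest of the 7 immunoglobulin rows, IGHV@ on scaffold69416, had 1.16, 0.635 and 0.315 FPKM (mean 0.702 ± 0.425, SD, n = 3), and 4 were listed at 0. Both defensin rows, DEFB104B and DEFB105B, the trace amine receptor TAAR8 with 2 rows, and the histone gene H3F3A were listed at 0 in every library. The vomeronasal receptor Vmn2r57 was also listed at 0, and Vmn2r88 had 0.0351 FPKM. The complement receptor GPR77 had 6.18 ± 0.892 FPKM (SD, n = 3). Its row shared 97.2% of its length with SULT2A1, a sulfotransferase gene, which had 13.5 FPKM and was higher in every library. TLR8, an innate receptor for single-stranded RNA, had 0.221 ± 0.0393 FPKM (SD, n = 3). The rows listed at 0 included genes that most cells use, such as H3F3A, RLIM and the prefoldin subunit PFDN4, so a 0 is given only as listed and not as absence of expression. For values above 0 in bulk tissue, fewer cells of a type and less RNA per cell cannot be told apart.

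Among genes with a known place in liver physiology, GLUL, the glutamine synthetase of the cells around the central vein, had 2 rows with 2.77 ± 1.43 FPKM on scaffold13673 and 0.465 FPKM on scaffold135053. NPC1L1, which takes up cholesterol, had 5.11, 4.58 and 0.843 FPKM, with naked mole rat 3 lowest. TNFAIP3, an inhibitor of NF-kappaB signalling, had 3.52 ± 0.127 FPKM (SD, n = 3). Its row shared 74.8% of its length with FAM54A, which had 4.74 FPKM and was higher in every library. ALAS2, the erythroid enzyme that starts haem synthesis, had 1.55, 1.89 and 2.42 FPKM. These 4 genes were chosen after their values were seen. Each has a RefSeq rat gene of the same name that had no row in the rat tables used here.

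Among the 126 names, 100 were written all in capitals, as human gene symbols are. Of all names, 17 were human open reading frame names, 5 were mouse clone or gene model names, such as Gm11428, and 2 carried the species in the name, Ednrb (Rattus_norvegicus) and Rhox12 (Rattus_norvegicus). A name could occur more than once: 12 names stood on 28 rows. For 11 of these names each row lay on a scaffold of its own, the exception being KDM4D, whose 2 rows were both on scaffold34. The rows of 1 name could differ widely in level. ZNF700 had 52.6 FPKM on scaffold325 and 0.508 on scaffold36887, and KAT2B, a histone acetyltransferase, had 6.48 FPKM on scaffold469 and 0.0117 on scaffold108. The higher ZNF700 row spanned 247116 bp and shared 72.9% of its length with N4BP1, which had 2.17 FPKM and was lower in every library. The lower ZNF700 row spanned 4008 bp and shared no bases with another row. VSIG6 had 3 rows between 420 and 624 bp that averaged 0.186 to 5.01 FPKM.

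The spans of the rows ran from 165 bp to 3469785 bp with a median of 8311 bp. The median was 23416.5 bp for named rows and 1242 bp for unnamed rows, against 154766 bp for rows with a rat match. The longest row was RLIM, a ubiquitin ligase gene on scaffold179, listed at 0 in every library. The other 4 of the 5 longest were PPP1R3F (3283589 bp, 6.57 FPKM), ACAD8 (3200933 bp, 1.44 FPKM), Sbp2 (2722788 bp, 21.8 FPKM) and TLR8 (2653151 bp, 0.221 FPKM). The 5 shortest had no name. They were the row on scaffold35662 described above, those on scaffold4312, scaffold71826 and scaffold748, which were listed at 0, and that on scaffold149492, which was above 0 in naked mole rat 1 alone.

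Level and span were related in a way that differed between the frequent and the highest values. Of the 65 rows of at least 100 kb, 47 (72.3%) reached 1 FPKM and 4 were listed at 0, and their median was 4.74 FPKM, but no mean of these rows exceeded 52.6 FPKM. Of the 50 rows under 1 kb, 11 (22.0%) reached 1 FPKM and 24 were listed at 0. The 8 rows of at least 100 FPKM all spanned less than 100 kb, CYP3A5 being the longest of them with 68347 bp. Rows with a rat match showed a like share at this length, 71.8% of those of at least 100 kb reaching 1 FPKM. At 100 kb or more, 32.8% of the unmatched rows were found and 55.5% of the matched ones.

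**Figure D3:**
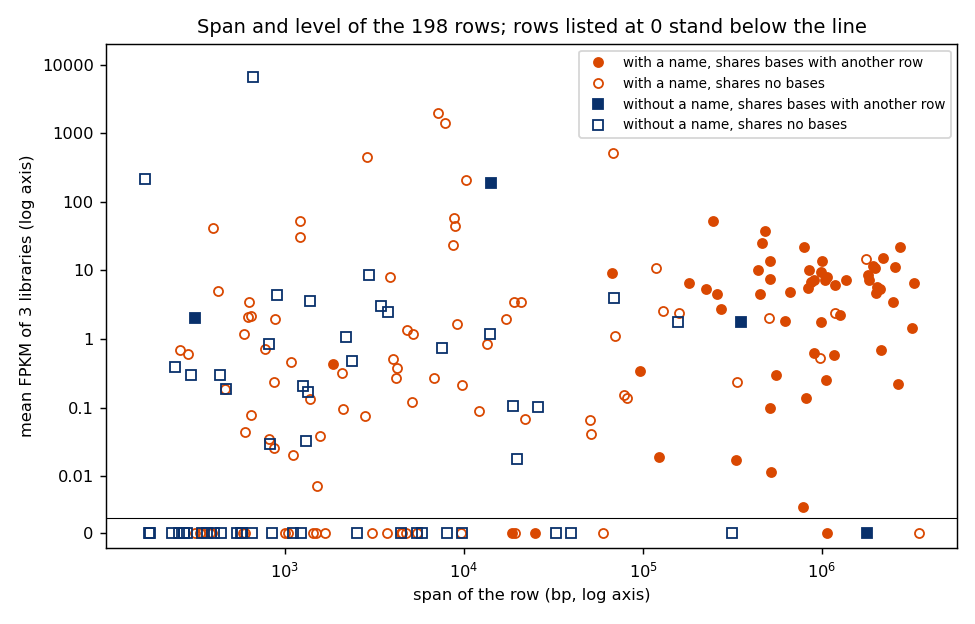
Mean FPKM of 3 libraries (y axis, log scale) against the span of the row (x axis, bp, log scale) for all 198 rows, with rows listed at 0 drawn below the line. Filled symbols share bases with another row and lie mostly at 100 kb or more, where no mean exceeds 52.6 FPKM, while the highest rows are short and open.

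Several rows started near the first base of a scaffold, and the other end of the scaffolds was not examined. Of the 198 rows, 34 (17.2%) started within the first 1000 bp of theirs, against 5.13% of the rows with a rat match. They included the row on scaffold130497, the CYP2B6 row on scaffold76895, CHMP4A, EIF6 and CES4. The 198 rows were spread over 185 scaffolds, and no scaffold held more than 2 of them.

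Overlap between rows followed their length. Among all 734 rows, 296 formed 148 pairs that shared at least 1 base, and no row had more than 1 partner. Of the 198 rows, 61 (30.8%) shared bases with another row, 57 of them named, against 48.9% of the rows with a rat match. At 100 kb or more, 54 of 65 shared bases (83.1%), and under 100 kb 7 of 133 did (5.26%). For rows with a rat match these shares were 77.5% and 13.2%. The partner was a row with a rat match for 41 rows, an olfactory receptor name for 4 and another unmatched row for 16, and 15 rows lay wholly within their partner. Rows that shared no bases held 94.9% of the FPKM of the 198 rows, and of the 8 rows with at least 100 FPKM the row on scaffold48809 was the only one that shared any. Of the 85 rows with at least 1 FPKM, however, 43 (50.6%) shared bases. The sources used here do not say whether fragments of a shared stretch were assigned to one row or to both.

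The 2 rows of a pair often had unequal levels. Of 45 pairs with a matched or olfactory partner, the unmatched row was higher in every library in 21, lower in every library in 15, and not in one order in 9. RSPH3 lay wholly within PRKCI, a protein kinase C gene, and had 24.9 FPKM against 2.48. SLC25A43 shared 99.0% of its length with UPF3B, a gene of nonsense-mediated decay, and had 22.1 FPKM against 1.57. MCM9 lay within GPRC6A, an amino acid receptor, with 10.9 against 2.56 FPKM. In the other direction GSC2, a homeobox gene, shared 95.1% of its row with SNAP29, a membrane fusion gene, and had 7.34 FPKM against 26.6. RPN1 shared 55.6% of its row with EEFSEC, the selenocysteine elongation factor, at 37.4 against 57.3 FPKM. TLR8 lay within TAF5L with 0.221 against 1.09 FPKM.

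Other pairs could not be ordered. C16orf87 had 8.02 FPKM and its partner ORC6L, an origin recognition subunit, 8.01. USP37, a deubiquitinase, had 7.26 FPKM and IGFBP5, an IGF-binding protein, 8.22. The 8 pairs of unmatched rows included C10orf10 with GLUL, at 13.8 and 2.77 FPKM, RAB12 with KIAA1045, at 9.41 and 6.72, SDR16C5 with CHCHD7, at 7.43 and 4.51, and ZNF25 with ZNF239, at 4.86 and 2.27. In each of these 4 pairs the row named first was higher in all 3 libraries.

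**Figure D4:**
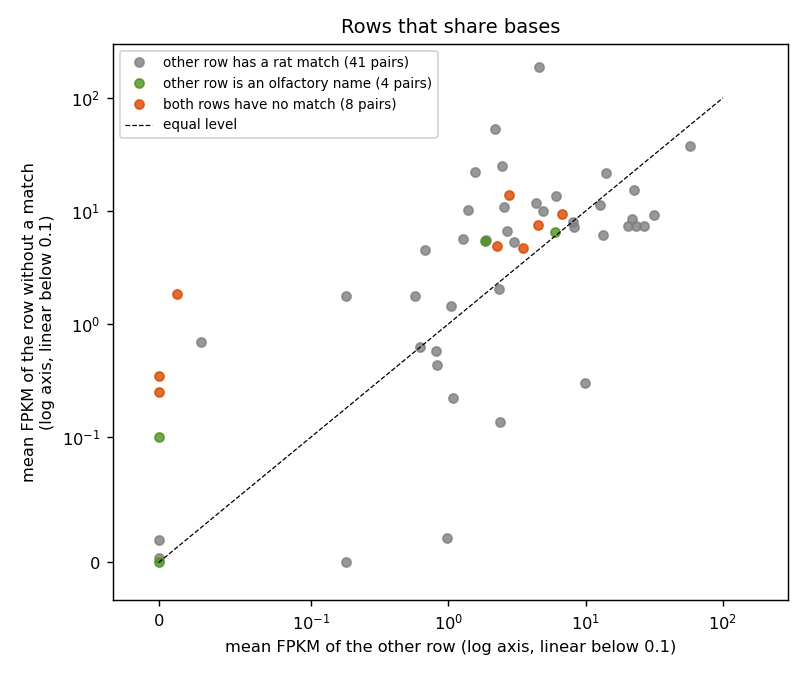
Mean FPKM of an unmatched row (y axis) against that of the row it shares bases with (x axis), 1 point per pair, both axes logarithmic and linear below 0.1 FPKM. Points lie on both sides of the line of equal level, and the row on scaffold48809 stands highest at 189 FPKM against 4.60 for its partner.

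The libraries gave similar profiles over the 198 rows. Pearson's r of log2(FPKM + 1) over the 198 rows was between 0.976 and 0.984 for the 3 pairs of libraries, and Spearman's rho between 0.917 and 0.943. These are correlations across rows, which are not replicates. Among the 85 rows with at least 1 FPKM, the highest library was 1.44 times the lowest in the median row, and 51 rows (60.0%) stayed within 1.5 times. The median SD of log2(FPKM + 1) was 0.22 for these rows, 0.21 for the named and 0.45 for the unnamed ones, against 0.18 for rows with a rat match. The highest value fell in naked mole rat 1 for 21 rows, in naked mole rat 2 for 28 and in naked mole rat 3 for 36. For the 231 rows with a rat match at that level, these counts were 71, 51 and 109.

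The steadiest rows with at least 10 FPKM were C10orf10 (13.4, 13.4 and 14.6 FPKM), ZNF275 (13.2, 14.4 and 13.2), ANO8 (11.3 ± 0.681, SD, n = 3), RPN1 and UGT2B4 on scaffold713. The most variable at that level were the row on scaffold48809, the lower CYP2B6 row, RSPH3, the row on scaffold35662 and C3orf37. In 10 of the 85 rows the libraries differed by more than 3 times or included a 0. Of the 231 rows with a rat match and at least 1 FPKM, 11 differed by more than 3 times and 0 included a 0. CRISP3, a secreted cysteine-rich protein gene, had 12.2, 2.47 and 9.34 FPKM. VSIG6 had 9.54, 3.78 and 1.72 FPKM on scaffold32552 and 4.46, 1.46 and 0.388 on scaffold450, the same order of libraries on both scaffolds. The unnamed row on scaffold59 had 4.22, 0.688 and 0.349 FPKM, and Gm11428 was above 0 only in naked mole rat 1, with 5.86 FPKM. Naked mole rat 1 was the high library in 8 of the 10 unmatched rows. The exceptions, both highest in naked mole rat 3, were the row on scaffold14 and that on scaffold113698, which had 1.05, 0.565 and 1.99 FPKM.

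A name without a rat match is not a gene without a rat counterpart. The 126 names were looked up as symbols and synonyms in RefSeq's rat gene table (GRCr8). As written, 57 names equalled no symbol or synonym in that table, among them the 2 names with the species in brackets. A further 33 were symbols of rat genes that had no row in the rat tables used here, 2 were synonyms of such genes (CYP2B6 and GPR77), and 8 pointed to more than 1 gene or could not be resolved. The remaining 26 names, on 29 rows, stood in the rat tables under another symbol. KAT2B, for example, was listed there as Pcaf, CELF1 as Cugbp1, RLIM as Rnf12 and FERMT1 as RGD1306816. The 57 names that were not found as written included CYP27C1, CYP3A5, CES4, CHMP4A, VSIG6 and most zinc finger names.

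For the 26 renamed genes the levels of both species could be set side by side, as deposited. In 9 the naked mole rat was above the rat in every library, in 9 the rat was above the naked mole rat in every library, and in 8 the ranges overlapped or were equal. Over the 388 symbols shared by both species the libraries did not overlap in the same sense for 36.6% with the naked mole rat higher and for 43.6% with the rat higher. The counts for the renamed genes, 9 of 26 in each direction, are near this background. No test was made for them, since annotation, scale and species cannot be told apart.

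Row lengths differed widely between the species. The naked mole rat row was more than 2 times as long as the rat row for 18 names, with a median ratio of 44.6, less than 0.5 times as long for 6, and of comparable span for 2. Among the 18 longer ones the naked mole rat was higher in 8 and the rat in 4, and among the 6 shorter ones the naked mole rat was higher in 1 and the rat in 4. The row with the largest length ratio, ACAD8, a mitochondrial acyl-CoA dehydrogenase, was lower in naked mole rat, with 1.44 FPKM against 9.11. HGSNAT, EIF2S3 and RLIM also had longer naked mole rat rows and were higher in rat. The shorter row that was higher in naked mole rat was UGT2B4, for which the level is a sum of 3 rows and the length that of the longest. A relation between row length and level was not tested. Of the 2 of comparable span, PHF8, a histone demethylase, had 2.44 ± 0.541 FPKM in naked mole rat and 2.60 ± 0.290 in rat (SD, n = 3 each), with overlapping ranges. CDK17, a cyclin-dependent kinase, had 0.0418 ± 0.0723 FPKM in naked mole rat and 0.953 ± 0.0575 in rat (SD, n = 3 each), and the ranges did not overlap.

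Among the longer rows, FERMT1 had 15.8, 16.6 and 11.6 FPKM in naked mole rat and 0.0108, 0.0114 and 0.0319 in rat. The row it stood on was 1749289 bp long, and that of the rat gene 44248 bp. RSPH3, listed in rat as Rshl2, had 24.9 ± 8.90 FPKM in naked mole rat and 0.681 ± 0.206 in rat (SD, n = 3 each). GSC2, listed as Gscl, and SDR16C5, a retinol dehydrogenase listed as Rdhe2, had 7.34 and 7.43 FPKM in naked mole rat and stood at 0 in all rat libraries. Both rows overlapped another row of the naked mole rat table, as described above. MCM9 (10.9 against 1.93 FPKM), ANO8 (11.3 against 3.28) and Sbp2, which RefSeq lists as a synonym of Secisbp2, a selenoprotein synthesis factor (21.8 against 6.26), were also higher in every naked mole rat library. RSPH3 and MCM9 lay within other rows, as described above. ANO8 shared 91.1% of its row with TMEM38A, which had 12.7 FPKM and was higher in every library. Sbp2 shared 91.1% of its row with DHPS, which had 13.9 FPKM and was lower in every library.

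Some renamed genes had overlapping ranges although their rows differed in length. SETD1A, a histone methyltransferase, had 7.39 ± 0.658 FPKM in naked mole rat and 7.94 ± 0.344 in rat (SD, n = 3 each). KAT2B had 6.49 ± 0.993 and 5.76 ± 2.09 FPKM, its 2 naked mole rat rows being summed. WDFY4, an antigen presentation gene, had 0.580 ± 0.0794 and 0.565 ± 0.0471 FPKM. The libraries of the species overlapped for each of these 3 genes. All their naked mole rat rows shared bases with another row. SETD1A shared 92.4% of its row with INO80E (20.4 FPKM) and WDFY4 83.9% with LRRC18 (0.813 FPKM), both higher in every library. KAT2B on scaffold469 lay wholly within the olfactory receptor row OR14I1 (5.93 FPKM), and its row on scaffold108 shared 97.5% with EEF1A1P9.

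Other genes were higher in every rat library. CELF1, an RNA-binding splicing regulator, had 1.06, 1.34 and 1.17 FPKM over a naked mole rat row of 588 bp and 13.6, 13.7 and 13.1 FPKM over a rat row of 17656 bp. STT3B, a catalytic subunit of the glycosylation complex to which RPN1 belongs, had 0.433 ± 0.297 FPKM in naked mole rat, over 1859 bp, and 17.3 ± 0.602 in rat (SD, n = 3 each). Its naked mole rat row lay wholly within that of PABPC5, which had 0.826 FPKM, and their order changed between libraries. TIMM8A, a mitochondrial import chaperone, had 0.614 ± 0.533 FPKM over 288 bp and 16.6 ± 1.71 in rat. EIF2S3, a subunit of the factor that brings initiator tRNA to the ribosome, had 0.101 ± 0.0230 FPKM and 12.5 ± 0.605 in rat. Its naked mole rat row was long, 510952 bp, and overlapped an olfactory receptor row listed at 0. RLIM, listed at 0 in all naked mole rat libraries, had 4.28, 5.35 and 4.94 FPKM in rat. For UGT2B4, which RefSeq resolves to a rat gene listed as Ugt2b36, the 3 summed rows had 275 ± 12.4 FPKM and the rat row 120 ± 8.00 (SD, n = 3 each), a pairing that is uncertain among the copies of the family. All these pairs rest on names and synonyms, not on sequence.

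**Figure D5:**
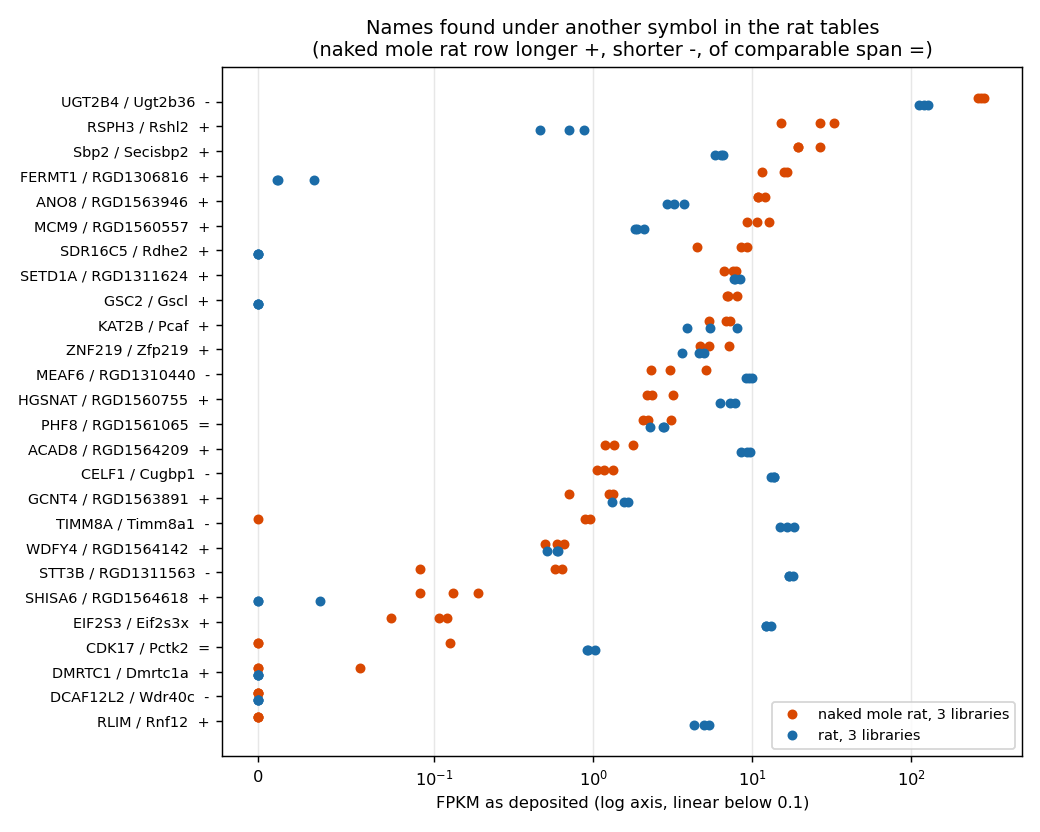
FPKM (x axis, log scale, linear below 0.1 FPKM) of the 26 names found under another symbol in the rat tables, 3 libraries per species. A plus marks a naked mole rat row longer than the rat row, a minus a shorter one and an equals sign one of comparable span. The naked mole rat points lie above the rat points for 9 names and below for 9.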

How the data were processed

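The authors deposited 1 gene table per library with FPKM values, loci, confidence bounds and a status, per the file headers. Picard 1.137, Cufflinks 2.1.1, TopHat2 2.0.9 and Bowtie2 2.1.0 are listed per the submitters' processing notes. The assembly and annotation behind them: not given in the sources used here. Loci are printed as deposited. All 734 naked mole rat rows had the status OK. FPKM values carry no read counts, which leaves the depth unknown and gives no counting intervals.

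Rows were classed by name, overlaps of at least 1 bp were found, and means and SD over libraries were computed in Python 3.11.15 with pandas 2.3.3 and numpy 2.4.6. The overlap search was tested on simulated data and found 50 of 50 pairs. No test was made, because the naked mole rat libraries are of 1 condition. Named rows were the 20 highest with a name, the 12 highest without, the 5 longest and shortest, the 5 of largest and smallest spread at 10 FPKM or more, and family members at 10 FPKM or more. Others were added after their values were seen. The rows and family lists were chosen with earlier results of these data known. Rat families were rows sharing a name prefix. Alternatives covered name matching, thresholds, scaling, pseudocounts (1, 0.1 and 0.01) and left-out libraries.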

Additional observations from a re-analysis of the deposited data

How the results depend on the processing

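Of 61 alternative values for the summary results, 45 stayed within 1.5 times the count or 1 SD of the value and 16 moved. Some of the 45 could not move. Every row had the status OK, so keeping only such rows changed nothing. With n = 3, leaving out a library cannot shift the mean share by 1 SD. Matching names with case kept left 602 rows without a match, with 99.9% of the FPKM, 316 rows at 1 FPKM or more, 127 listed at 0, 261 overlapping and a median span of 81400.5 bp, since capitals then match no rat-style name. Keeping olfactory receptor names gave 325 rows, 163 listed at 0 and 96 overlapping. Matching through RefSeq synonyms left 169 rows with a median span of 5114 bp. Leaving out the most abundant row lowered the share to 44.2%. A threshold of 10 FPKM was passed by 29 rows, and overlap with other unmatched rows alone was found for 16. The median span of rows at 1 FPKM or more was 181235 bp. The median SD was 0.106 without a filter on low values and 0.14 to 0.251 when each library was left out in turn, the lowest without naked mole rat 3. In the same way the share ranged from 59.5% to 65.0%, the rows at 1 FPKM or more from 82 to 86, and those listed at 0 from 56 to 63. The renamed genes higher in naked mole rat in all libraries numbered 9 to 10 and those higher in rat 9 to 11 when a library was left out, and 10 and 9 after scaling, an alternative chosen after seeing the data. Of 128 alternative values for the 32 highest named and unnamed rows, 2 moved by more than 1.5 times: the row on scaffold14 from 4.44 to 2.63 FPKM without naked mole rat 3, and that on scaffold59 from 1.75 to 0.518 FPKM without naked mole rat 1. No paired analysis was possible because the results come from no test. Unknown depth limits what a value of 0 or below 0.1 FPKM can show.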
